A study of Homo sapiens with 37 samples.

Results

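The genes described here are 43 genes by which endothelium, the cell layer that lines blood vessels, is commonly recognised. They were taken from a list of gene symbols, each matched to 1 Ensembl identifier among the 57773 in the deposited count tables. The list holds 7 transcription regulators, 11 receptors, 12 junction and surface proteins, 7 proteins of clotting control and 6 secreted or vascular-tone proteins. The study sequenced total RNA of human cells in states of senescence, a lasting arrest of cell division, in 37 libraries of 17 groups. Endothelial cells of the aorta (HAEC, population doubling level 4 to 6) were left untreated (2 libraries) or given 4 Gy of ionizing radiation (3 libraries). Endothelial cells of the umbilical vein (HUVEC, level 3 to 5) were likewise untreated (3 libraries) or given 4 Gy (3 libraries). HAEC and HUVEC were grown in different endothelial media, so cell type and medium cannot be told apart. The other 26 libraries were of fetal lung fibroblasts, IMR-90 and WI-38, in serum-containing medium, with 2 libraries in each of 13 groups. IMR-90 were proliferating (level 15), given 10 Gy (level 15) or at late passage (level 52). A first set of WI-38, at level 25, was left untreated, treated with doxorubicin (2 µg/mL for 24 h), or infected with lentivirus carrying HRAS(G12v) or an empty vector and selected with puromycin. A second set of WI-38 held a repeat of the doxorubicin experiment, cells given 10 Gy with their own controls, cells at late passage (level 53 to 55) and proliferating cells. The labels do not say that libraries of 1 group came from separate cultures, and the p-values here then describe spread among libraries that may be purely technical.

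Endothelial identity rests on a small set of transcription regulators of the ETS, SOX and GATA-partner families, which keep on genes for growth factor receptors, cell contacts and proteins facing the blood. The VEGF receptors and the TIE receptors carry growth and survival signals, while VE-cadherin holds neighbouring cells together. The same cells set the balance of clotting, through stored von Willebrand factor on one side and thrombomodulin and tissue factor pathway inhibitors on the other, and the tone of the vessel, through nitric oxide and endothelin. KLF2 and KLF4 respond to blood flow, which a culture dish lacks.

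Promoter sequence was available for 30 of the 43 genes, in 40 entries of RefSeq (build GRCh38.p14), and was searched over the 250 bases before each start for 4 short motifs on both strands. The ETS core AGGAAG occurred in 23 of the 40 entries (57.5%), against 28.7% of all 35116 promoter entries of the same length. The GATA motif AGATAA occurred in 17.5% against 9.17%, the KLF motif CCACCC in 40% against 31.3%, and the AP-1 motif TGACTNA in 5% against 9.8%. None of these 4 motifs overlapped another in the promoters printed here. By gene, a motif was counted where any entry of the gene held it, unlike the shares by entry above. Of the 13 genes that rose after radiation in both endothelia, 9 had an entry and 6 of those held the ETS core (CALCRL, EDN1, MMRN1, MMRN2, TAL1 and TIE1). For EDN1 it was not in the entry printed below. Of the 8 that fell in both, 5 had an entry and 2 held the ETS core (FLT1 and PLVAP). The KLF motif was held by 4 of the 9 that rose and 3 of the 5 that fell. The GATA motif was held by 2 and 1 of them, and the AP-1 motif by 1 and 0. No share of all genes was taken by this count, so these counts by direction have no background and are descriptive only. A match is only a stretch of letters, not a measured binding site.
The promoters of 6 genes whose RNA moved the same way in both endothelia are shown, with matches in capitals. TIE1 (chr1:43300732-43300981, plus strand) and MMRN2 (chr10:86957616-86957865, minus strand) rose and hold the reverse complement of the ETS core, CTTCCT, 21 and 52 bases before the start, beside KLF motifs. EDN1 (chr6:12290111-12290360, plus strand) rose and holds, in the entry shown of its 3, a GATA match 136 and an AP-1 match 108 bases before the start. ADTRP (chr6:11778804-11779053, minus strand) fell and holds 2 GATA matches, 187 and 177 bases before. TFPI2 (chr7:93890754-93891003, minus strand) fell and holds 1 KLF match, 79 bases before. GALNT15 (chr3:16174430-16174679, plus strand), which rose most, holds none of the 4 motifs in this window.
TIE1: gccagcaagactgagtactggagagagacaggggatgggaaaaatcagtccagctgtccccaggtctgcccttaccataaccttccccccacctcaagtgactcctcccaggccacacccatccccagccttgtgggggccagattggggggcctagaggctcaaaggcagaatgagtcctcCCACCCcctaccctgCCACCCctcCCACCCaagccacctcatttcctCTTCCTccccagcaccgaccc
MMRN2: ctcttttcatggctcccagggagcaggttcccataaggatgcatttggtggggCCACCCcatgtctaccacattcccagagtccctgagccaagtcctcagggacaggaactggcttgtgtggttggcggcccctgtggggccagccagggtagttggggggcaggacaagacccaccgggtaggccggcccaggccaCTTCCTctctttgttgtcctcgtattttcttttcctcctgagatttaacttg
EDN1: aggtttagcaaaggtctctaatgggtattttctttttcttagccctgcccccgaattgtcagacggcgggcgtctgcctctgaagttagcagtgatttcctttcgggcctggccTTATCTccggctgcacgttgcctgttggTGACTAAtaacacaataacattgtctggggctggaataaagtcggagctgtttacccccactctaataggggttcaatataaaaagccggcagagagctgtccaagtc
ADTRP: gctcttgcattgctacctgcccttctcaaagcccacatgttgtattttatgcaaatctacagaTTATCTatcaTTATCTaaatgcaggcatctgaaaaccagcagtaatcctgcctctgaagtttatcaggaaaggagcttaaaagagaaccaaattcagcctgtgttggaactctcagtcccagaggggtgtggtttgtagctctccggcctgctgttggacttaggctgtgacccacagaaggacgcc
TFPI2: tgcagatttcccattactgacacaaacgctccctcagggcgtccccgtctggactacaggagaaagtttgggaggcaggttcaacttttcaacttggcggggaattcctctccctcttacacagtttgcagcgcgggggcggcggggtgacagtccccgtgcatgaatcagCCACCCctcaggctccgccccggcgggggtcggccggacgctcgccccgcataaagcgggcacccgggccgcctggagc
GALNT15: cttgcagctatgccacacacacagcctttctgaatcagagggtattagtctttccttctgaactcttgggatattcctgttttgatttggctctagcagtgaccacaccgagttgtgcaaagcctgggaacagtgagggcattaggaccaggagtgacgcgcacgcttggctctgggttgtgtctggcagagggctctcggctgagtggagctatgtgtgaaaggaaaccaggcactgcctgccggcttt

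Levels are given in CPM (read counts scaled to a common library size) on library totals scaled over all 37 libraries. Of the 43 genes, 32 were separate, with the lowest of the 11 endothelial libraries above the highest of the 26 fibroblast libraries, against 4.45% of the 36614 genes that could be compared. The genes had been listed as endothelial, so this checks the labels of the libraries and is no finding. Per kilobase of exon, MMRN1 (multimerin 1, a carrier of clotting factor V) had the highest level of the 43 in every endothelial group, from 267 CPM per kilobase in control HUVEC to 526 in irradiated HAEC. PROCR, the endothelial protein C receptor, came next in all 4 groups, from 168 to 203 CPM per kilobase. APLNR, the apelin receptor, was last with 0 to 0.0433 CPM over the 11 libraries, and was the only gene of the 43 that did not pass the filter on low counts in either endothelium. In the control HUVEC libraries it had no count, which allows up to 0.0171 CPM per library (3 counts, counting error only).

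**Figure D1:**
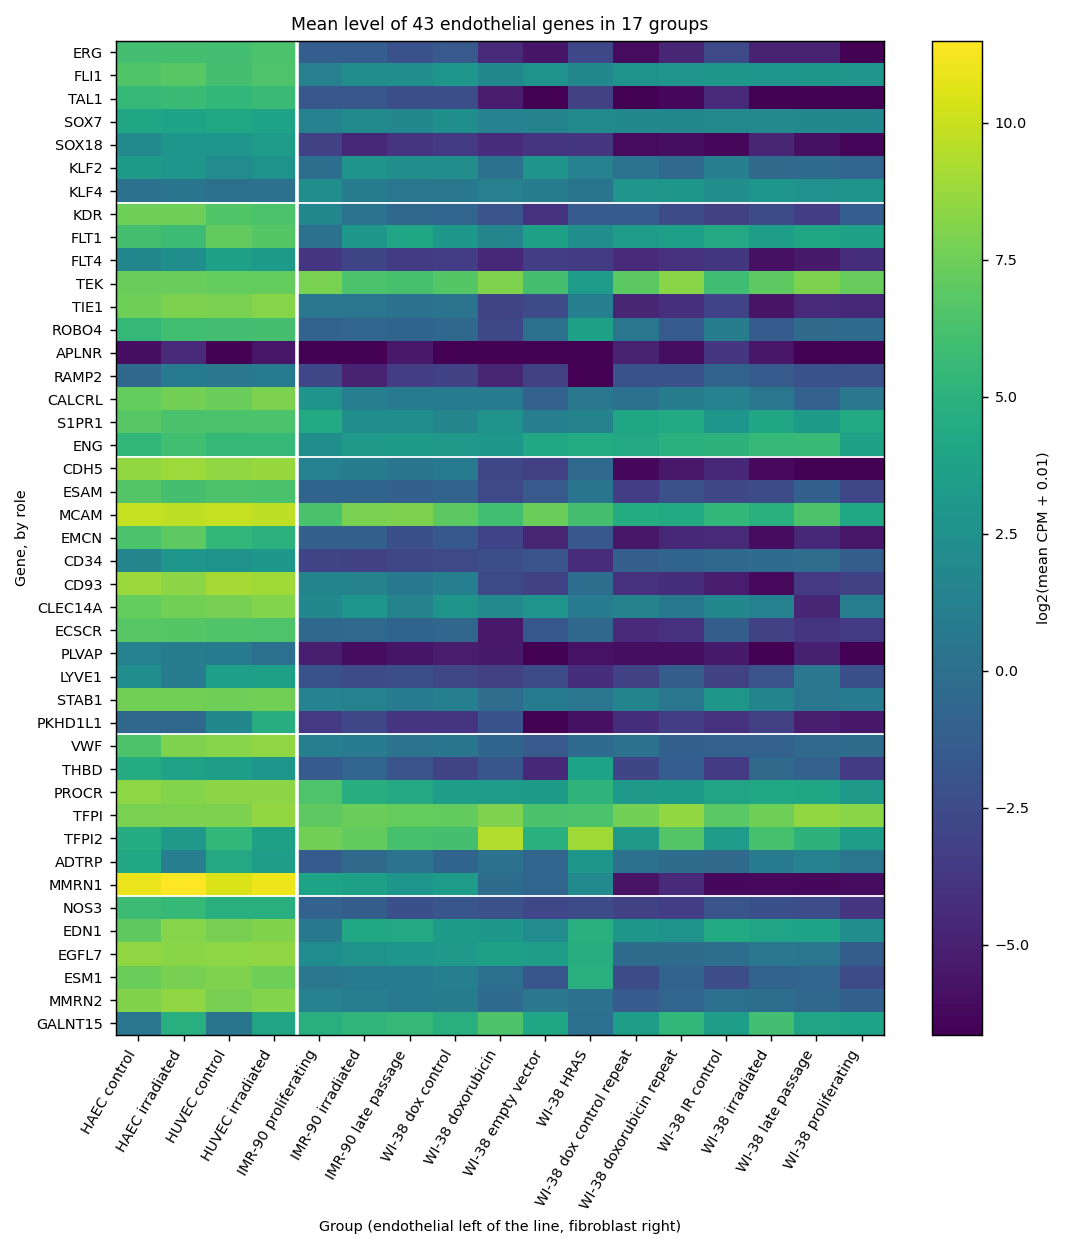
Each row is 1 of the 43 genes, each column 1 of the 17 groups, and the colour is log2(mean CPM + 0.01) over the 2 or 3 libraries of the group. The 4 endothelial columns left of the white line are brighter than the 13 fibroblast columns for most genes. For TEK, TFPI, TFPI2, KLF2, KLF4, ENG, GALNT15 and APLNR, at least 1 fibroblast group lay above the mean of the endothelial controls.

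Total counts were 102293388 to 195250835 per endothelial library and 135085231 to 370996204 per fibroblast library, so counting error was small beside the spread between libraries for all but the lowest genes. Replicates differed by more than sampling noise (chi-square per degree of freedom 8.5 to 33.8 in endothelium). In fibroblasts the same measure was wider, from 19.2 in irradiated IMR-90 to 534 in irradiated WI-38. No replicate looked like a library deposited more than once. All 22 listed cell division genes fell after radiation in both endothelia, with their summed level going from 2626 to 2708 CPM in control to 1018 to 1055 CPM in irradiated HAEC, and from 2590 to 2745 to 1634 to 1679 CPM in HUVEC. The 18 fibroblast markers summed to 105 to 158 CPM in endothelial libraries, against 2966 to 18424 CPM in the fibroblasts. DPT was at 0 in the endothelial libraries, but also in all IMR-90 groups, the first WI-38 set and proliferating WI-38. The 12 smooth muscle markers summed to 537 to 552 CPM in control and 748 to 804 CPM in irradiated HUVEC, mostly RGS5, and to 126 to 136 CPM in HAEC of both groups. The 10 epithelial markers went from 436 to 457 to 983 to 1008 CPM in HAEC and from 370 to 374 to 440 to 444 CPM in HUVEC, with ESRP1 at 0. KRT7 was the highest of them in HAEC, with means of 219 CPM in control and 705 CPM after radiation. In HUVEC KRT18 was the highest (172 and 170 CPM), with KRT7 at 89.8 and 154 CPM. The 12 leukocyte markers summed to 5.52 to 29.8 CPM, with CD3E, TYROBP and CD52 at 0. The 4 lymphatic markers went from 22.7 to 8.52 to 9.52 CPM in HAEC, mostly RELN, and from 2.54 to 2.75 to 3.66 to 4.07 CPM in HUVEC. The part of these cells in the results below was not tested, and in bulk RNA fewer cells of a type and less RNA per cell cannot be told apart.

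The first comparison asked how irradiated endothelium differed from its control in these genes. Most of them moved by less than 2-fold, and they moved in both directions. VWF, EDN1, CD34 and RAMP2 rose and ADTRP and LYVE1 fell at least 2-fold in HAEC, GALNT15 rose and TFPI2 fell at least 2-fold in both, and PKHD1L1 rose at least 2-fold in HUVEC. Differences were tested with edgeR's quasi-likelihood test over all genes, and a gene was called where the Benjamini-Hochberg adjusted p (q) was below 0.05. In HAEC, 19 of the 42 genes tested were higher after 4 Gy, 14 lower and 9 not called, with a median log2 fold change of 0.07 against 0.01 over all 28024 genes tested. The share called was 78.6%, against a background of 39.7% of all genes, and 79.4% against 66.1% among genes of average log2 CPM of at least 3, which are better measured. Of the 42, 8 moved by 2-fold or more (5 up, 3 down), a larger share than the 8.08% of all genes. Over all genes, 19.7% were higher and 19.9% lower. In HUVEC, 17 of 42 were higher, 13 lower and 12 not called (71.4%, against a background of 38.7%, and 73% against 66.4% among genes of log2 CPM of at least 3), with a median of 0.07. There, 3 of 42 moved by 2-fold or more (2 up, 1 down), against 3.46% of all genes. Over all genes, 18.6% were higher and 20.1% lower. Leaving out the 5 genes that an earlier analysis of these libraries had already singled out (GALNT15, PKHD1L1, ADTRP, TFPI2 and VWF), 17 were higher and 12 lower of 37 in HAEC, and 14 and 11 in HUVEC. Without them, 3 rose and 1 fell by 2-fold or more in HAEC, and 0 moved that much in HUVEC. The 2-fold shares of the 42 thus include genes picked from these same libraries.

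**Figure D2:**
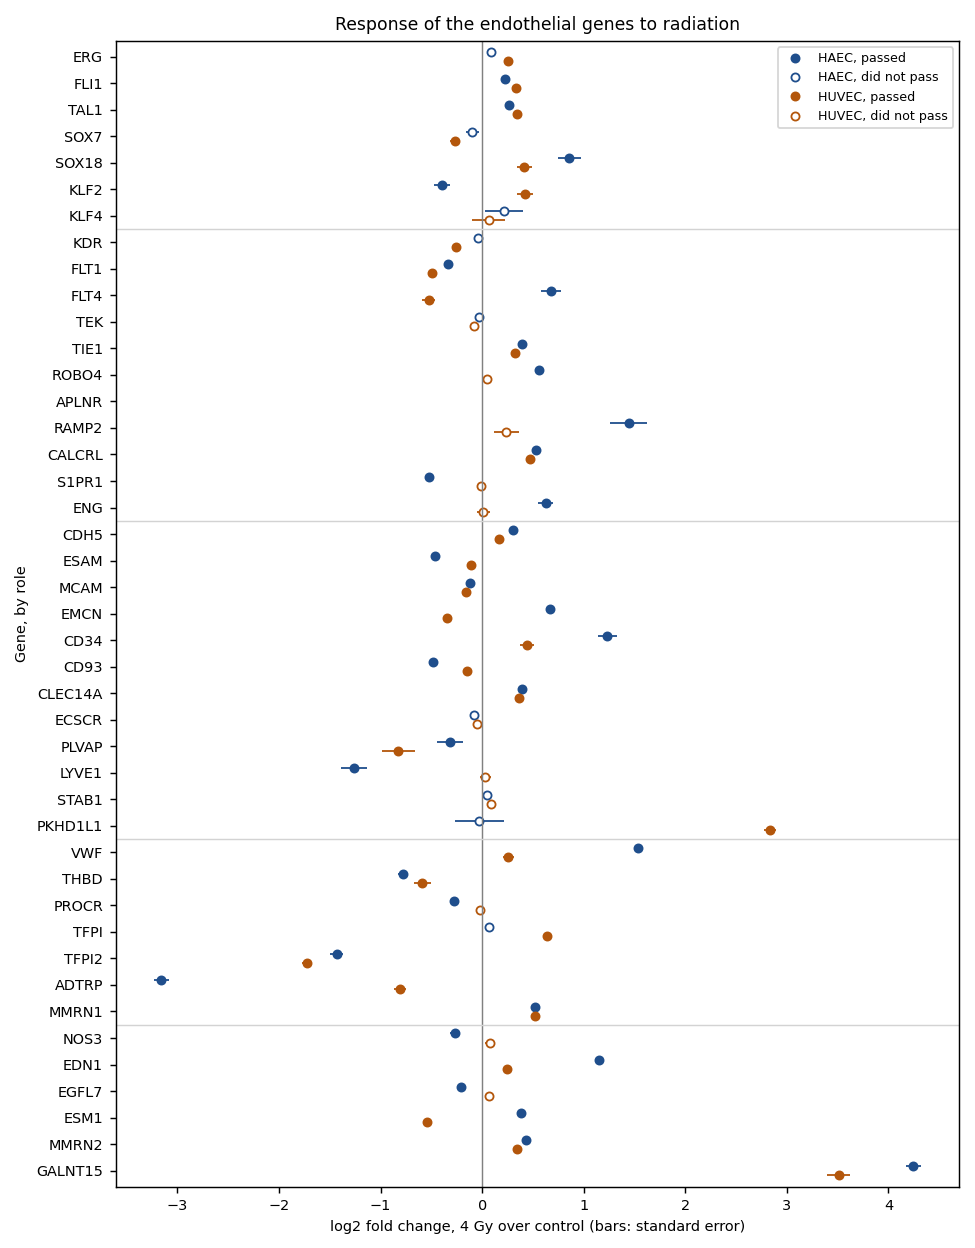
Points are log2 fold changes of irradiated over control libraries with their standard errors, for HAEC (blue, 3 against 2 libraries) and HUVEC (orange, 3 against 3), genes in rows by role; filled points passed q below 0.05. Most genes lie within 1 unit of 0 in both, ADTRP and GALNT15 lie far out on opposite sides, and EMCN, ESM1, FLT4 and KLF2 lie on opposite sides of 0 in the 2 endothelia.

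Of the genes called in both, 13 were higher in both (CALCRL, CD34, CDH5, CLEC14A, EDN1, FLI1, GALNT15, MMRN1, MMRN2, SOX18, TAL1, TIE1 and VWF) and 8 were lower in both (ADTRP, CD93, ESAM, FLT1, MCAM, PLVAP, TFPI2 and THBD). Another 4 were called in opposite directions. EMCN, ESM1 and FLT4 were higher in HAEC and lower in HUVEC, and KLF2 was the reverse. The remaining called genes passed in 1 endothelium, which does not show that the responses differ; that test is given with each gene. ENG, RAMP2 and ROBO4 were called higher and EGFL7, LYVE1, NOS3, PROCR and S1PR1 lower in HAEC, while ERG, PKHD1L1 and TFPI were called higher and KDR and SOX7 lower in HUVEC. ECSCR, KLF4, STAB1 and TEK were called in neither. No share of all genes called in both endothelia was taken, so these joint counts have no background and are descriptive only. The counts by role below are to be read against 39.7% of all genes called in HAEC and 38.7% in HUVEC. Among genes of log2 CPM of at least 3 these shares were 66.1% and 66.4%.

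Among the 7 regulators, 3 were called higher and 1 lower in HAEC, and 5 higher and 1 lower in HUVEC, all by less than 2-fold. ERG (ENSG00000157554), an ETS factor that keeps endothelial genes on, had 67.0 and 69.3 CPM in control HAEC and 71.8, 72.6 and 73.2 CPM after radiation. In HUVEC it had 64.6, 68.2 and 71.4 CPM in control and 79.8, 82.1 and 85.6 CPM after. The irradiated libraries were above the controls in both, but in HAEC the log2 fold change of 0.09 ± 0.04 (SE) did not pass (q = 0.0599), while the 0.25 ± 0.04 in HUVEC did (q = 9.56e-06). The difference between the responses, 0.17 ± 0.06, had q = 0.0323, but it was lost under most other settings. FLI1 (ENSG00000151702), another ETS factor, had 95.0 and 97.0 CPM in control and 111, 111 and 116 CPM in irradiated HAEC. It had 70.3, 72.3 and 73.5 CPM in control and 90.1, 90.7 and 95.6 CPM in irradiated HUVEC. The groups did not overlap in either cell type, and FLI1 rose by 0.22 ± 0.03 and 0.33 ± 0.04 (q = 2.30e-05 and 4.79e-08). TAL1, a helix-loop-helix factor of blood and vessel cells, rose alike, by 0.27 ± 0.04 and 0.35 ± 0.04 on the log2 scale. SOX18, a SOX factor of vascular development, rose by 0.86 ± 0.11 in HAEC, from 3.55 and 4.69 CPM to 6.51, 7.64 and 8.12 CPM, and by 0.41 ± 0.07 in HUVEC.
KLF2 (ENSG00000127528), the flow-responsive regulator of NOS3 and THBD, moved in opposite directions. HAEC had 9.22 and 10.0 CPM in control and 6.68, 7.67 and 7.71 CPM after radiation, and HUVEC had 4.33, 4.34 and 4.41 CPM in control and 5.82, 5.95 and 6.05 CPM after. No irradiated library overlapped its controls, and the gap between the endothelia narrowed. The log2 fold changes were -0.40 ± 0.08 (q = 3.28e-04) and 0.42 ± 0.08 (q = 8.30e-05), and they differed by 0.82 ± 0.11 (q = 1.72e-06). KLF4 (ENSG00000136826), its close relative, was low, at 1.02 and 1.28 CPM in control and 1.16, 1.21 and 1.61 CPM in irradiated HAEC, and at 0.874, 1.11 and 1.13 CPM in control and 0.983, 1.08 and 1.24 CPM in irradiated HUVEC. Its groups overlapped, and neither change passed (0.21 ± 0.19 and 0.06 ± 0.16, q = 0.416 and 0.809). SOX7 was at -0.10 ± 0.06 in HAEC (q = 0.249) and fell by 0.26 ± 0.05 in HUVEC, with no difference past the threshold between the responses (-0.17 ± 0.08, q = 0.154), but 39.4% of its exon length lies within PINX1 on the same strand, so its counts are uncertain.

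Among the 10 receptors tested, 6 were called higher and 2 lower in HAEC, and 2 higher and 3 lower in HUVEC. The VEGF receptors did not move as one. KDR (ENSG00000128052), the main VEGF receptor, had 177 and 187 CPM in control and 175, 178 and 178 CPM in irradiated HAEC, and 92.8, 96.1 and 98.0 CPM in control and 79.2, 79.8 and 84.1 CPM in irradiated HUVEC. HAEC groups overlapped and the -0.04 ± 0.03 did not pass (q = 0.306), whereas in HUVEC KDR fell by 0.26 ± 0.04 without overlap (q = 2.20e-06), and the responses differed by -0.22 ± 0.05 (q = 0.00183). FLT1, a decoy VEGF receptor, fell in both, by 0.34 ± 0.04 and 0.49 ± 0.04 on the log2 scale. FLT4 (ENSG00000037280), the receptor for VEGF-C, had 3.00 and 3.36 CPM in control and 5.08, 5.11 and 5.20 CPM in irradiated HAEC. In HUVEC it had 12.7, 13.3 and 14.7 CPM in control and 9.11, 9.65 and 9.92 CPM after. Every irradiated HAEC library was above its controls and every irradiated HUVEC library below, so that FLT4 was 0.68 ± 0.10 in HAEC (q = 7.32e-06) and -0.53 ± 0.06 in HUVEC (q = 1.01e-07), a difference of -1.20 ± 0.11 (q = 2.45e-09).
TEK (ENSG00000120156), the angiopoietin receptor, was nearly level, with 165 and 167 CPM in control and 162, 164 and 166 CPM in irradiated HAEC, and 148, 149 and 155 CPM in control and 144, 145 and 146 CPM in irradiated HUVEC. Groups overlapped in HAEC and lay close in HUVEC, and neither change passed (-0.03 ± 0.03 and -0.08 ± 0.04, q = 0.557 and 0.0919). Without HUVEC control replicate 1 TEK was called lower there (-0.10, q = 0.0339), as it was with DESeq2 (-0.08, q = 0.0368). TIE1, its partner receptor, rose in both, by 0.40 ± 0.03 and 0.32 ± 0.04. The receptor for adrenomedullin is built from CALCRL and RAMP2. CALCRL rose by 0.53 ± 0.03 in HAEC and 0.47 ± 0.04 in HUVEC. RAMP2 (ENSG00000131477) was far lower, with 0.620 and 0.721 CPM in control and 1.65, 1.77 and 2.11 CPM in irradiated HAEC, and 1.40, 1.58 and 1.62 CPM in control and 1.77, 1.82 and 1.93 CPM in irradiated HUVEC. It was higher in every irradiated library, by 1.44 ± 0.18 in HAEC (q = 1.21e-06), while the 0.24 ± 0.13 in HUVEC did not pass (q = 0.149), and the responses differed by -1.20 ± 0.21 (q = 1.22e-04). RAMP2 shares 35.9% of its exon length with RAMP2-AS1 on the other strand, and whether counting used strand is not given in the sources used here. ROBO4, a receptor that limits vessel leak, and ENG, a TGF-beta co-receptor, were higher in HAEC (0.56 ± 0.04 and 0.62 ± 0.07) and did not pass in HUVEC (0.05 ± 0.04 and 0.01 ± 0.06, q = 0.442 and 0.904). ROBO4 was called higher in HUVEC without control replicate 1 (0.12, q = 0.0129). Their responses differed by -0.51 ± 0.07 and -0.61 ± 0.11 (q = 2.66e-06 and 2.42e-04). S1PR1, the sphingosine-1-phosphate receptor, fell by 0.52 ± 0.04 in HAEC and was at -0.01 ± 0.04 in HUVEC (q = 0.822), a difference of 0.51 ± 0.05 (q = 7.30e-08).

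Among the 12 junction and surface genes, 4 were called higher and 5 lower in each endothelium. CDH5 (ENSG00000179776), VE-cadherin, had 368 and 373 CPM in control and 434, 469 and 472 CPM in irradiated HAEC, and 340, 356 and 377 CPM in control and 400, 404 and 417 CPM in irradiated HUVEC. It was above the controls in every irradiated library and rose by 0.30 ± 0.03 (q = 4.55e-07) and 0.16 ± 0.04 (q = 0.00127), and the 2 responses did not differ past the threshold (-0.14 ± 0.05, q = 0.0791). ESAM, another adhesion molecule of endothelial contacts, fell in both, by 0.46 ± 0.04 and 0.11 ± 0.04 (q = 0.0243 in HUVEC), and MCAM (CD146) fell by 0.12 ± 0.03 and 0.16 ± 0.04. The HUVEC call for ESAM was lost with no scaling of totals, with the replicate number as a block (q = 0.0552) and without control replicate 1 or irradiated replicate 1 or 3, where its log2 fold change was -0.08 to -0.11. The HAEC call for MCAM was lost with no scaling (-0.07) and without control replicate 1 (-0.07).
The sialomucin EMCN (ENSG00000164035), an anti-adhesive coat protein, split the endothelia. HAEC had 81.3 and 82.9 CPM in control and 126, 134 and 134 CPM after radiation, and HUVEC had 39.4, 40.8 and 41.1 CPM in control and 32.2, 32.3 and 32.5 CPM after. Neither pair of groups overlapped, and EMCN was 0.67 ± 0.04 in HAEC (q = 3.09e-12) and -0.35 ± 0.04 in HUVEC (q = 8.17e-08), a difference of -1.01 ± 0.05 (q = 2.38e-14). CD34 (ENSG00000174059), a related sialomucin of progenitors and sprouting tip cells, had 3.07 and 3.17 CPM in control and 6.70, 7.54 and 7.75 CPM in irradiated HAEC, and 5.67, 5.81 and 6.44 CPM in control and 8.15, 8.22 and 8.35 CPM in irradiated HUVEC. It rose in both, by 1.23 ± 0.09 (q = 9.90e-10) and 0.44 ± 0.07 (q = 1.57e-05), and by less in HUVEC (difference -0.79 ± 0.12, q = 9.84e-06). The C-type lectin relatives CD93 and CLEC14A went opposite ways: CD93 fell by 0.48 ± 0.03 and 0.15 ± 0.04, and CLEC14A rose by 0.39 ± 0.03 and 0.36 ± 0.04.
LYVE1 (ENSG00000133800), a hyaluronan receptor best known from lymphatic vessels, had 4.35 and 4.97 CPM in control and 1.61, 2.06 and 2.19 CPM in irradiated HAEC, and 11.9, 12.2 and 12.9 CPM in control and 12.6, 12.9 and 12.9 CPM in irradiated HUVEC. It fell in HAEC without overlap (-1.26 ± 0.13, q = 6.00e-08) and was at 0.03 ± 0.05 in HUVEC (q = 0.690), with a difference of 1.30 ± 0.12 (q = 7.13e-09). Of the lymphatic markers, RELN fell with it in HAEC, from 21.9 to 7.09 CPM (-1.63 ± 0.06, q = 2.46e-14), while PROX1, the defining regulator of that lineage, rose there from 0.793 to 1.95 CPM (1.28 ± 0.16, q = 1.80e-06). Both rose in HUVEC, where LYVE1 was not called (RELN 0.66 ± 0.16, q = 0.00126; PROX1 0.43 ± 0.11, q = 0.00348), and PDPN was near 0 throughout. PKHD1L1 (ENSG00000205038), a large fibrocystin-like membrane protein, was called in HUVEC and not in HAEC. It had 0.630 and 0.745 CPM in control and 0.506, 0.715 and 0.818 CPM in irradiated HAEC, where the groups overlapped (-0.03 ± 0.24, q = 0.946). In HUVEC it had 3.24, 3.49 and 3.72 CPM in control and 25.2, 25.2 and 25.4 CPM after radiation, a rise of 2.84 ± 0.06 (q = 1.49e-20). The responses differed by 2.87 ± 0.19 (q = 6.34e-12). PLVAP, which forms the diaphragms of vesicles and pores, was 0.847 to 2.62 CPM over the 11 libraries and fell by 0.83 ± 0.16 in HUVEC; its -0.32 ± 0.13 in HAEC was at q = 0.0499 and was lost in 9 of 11 alternatives. ECSCR and the scavenger receptor STAB1 did not pass in either (-0.08 ± 0.03 and -0.05 ± 0.04 for ECSCR, q = 0.0743 and 0.304; 0.05 ± 0.04 and 0.09 ± 0.04 for STAB1, q = 0.303 and 0.109). STAB1 was called higher in HUVEC without control replicate 1 (0.13, q = 0.00786), and in HAEC without irradiated replicate 2 (0.09, q = 0.0407) or with no scaling of totals (0.11, q = 0.0477). ECSCR shares 72.5% of its exon length with another annotated gene on the same strand, so its counts are uncertain.

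**Figure D3:**
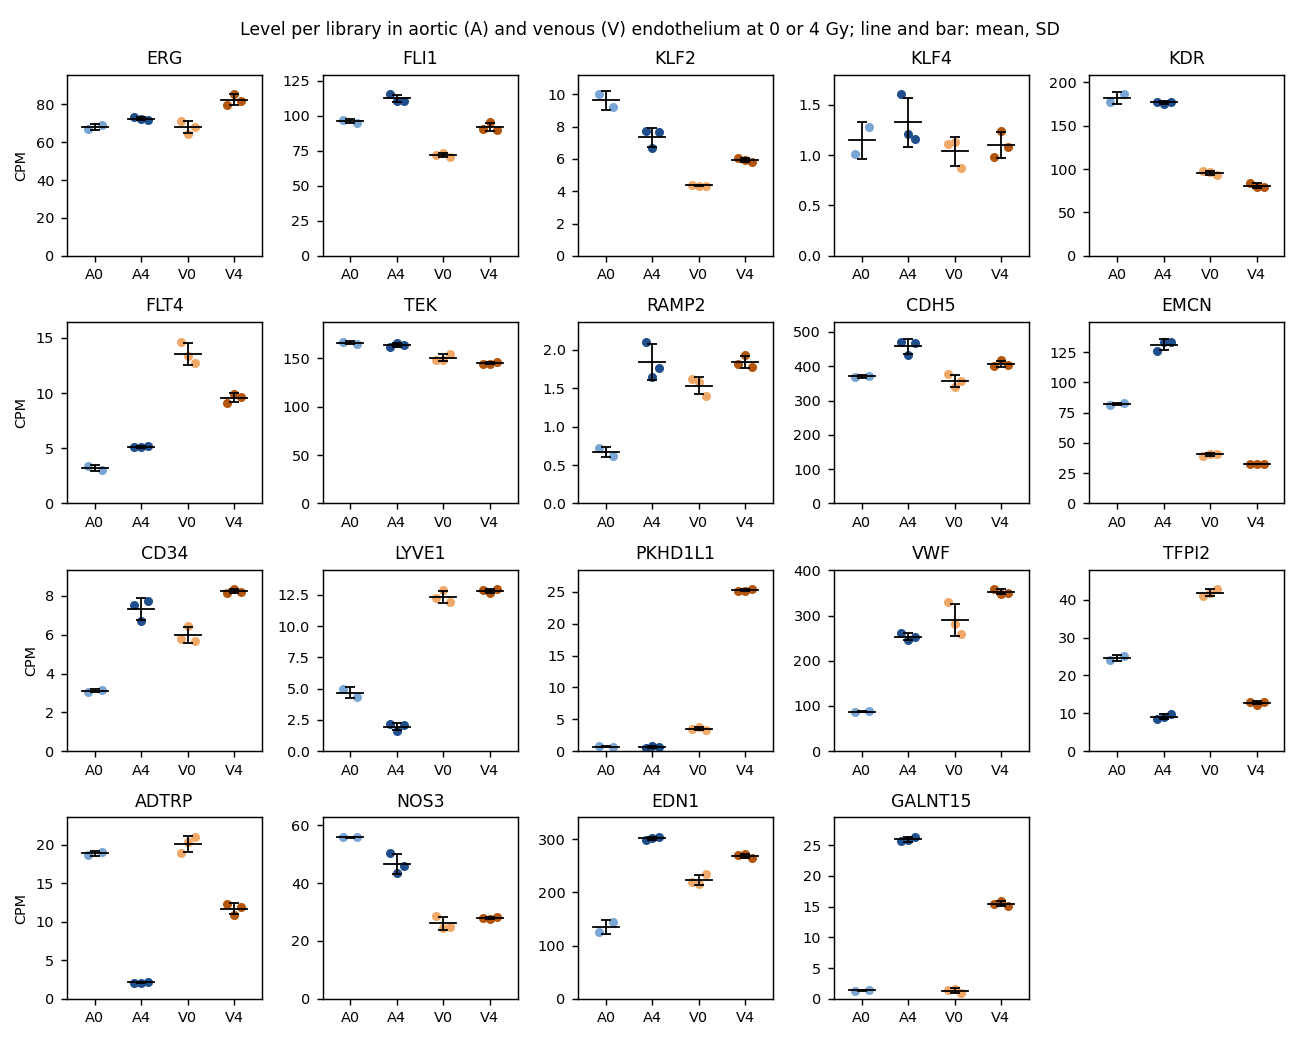
Each panel is 1 gene, each point the CPM of 1 library, for HAEC (A) and HUVEC (V) at 0 or 4 Gy; horizontal lines are means and bars SD over 2 or 3 libraries, and each axis starts at 0. FLT4, EMCN and KLF2 move in opposite directions in the 2 endothelia, PKHD1L1 rises in HUVEC only, LYVE1 falls in HAEC only, and GALNT15 rises and TFPI2 falls in both.

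Of the 7 genes of clotting control, 2 were called higher and 4 lower in HAEC, and 3 each way in HUVEC. VWF (ENSG00000110799), the multimer that tethers platelets, had 86.5 and 88.3 CPM in control HAEC and 246, 253 and 261 CPM after radiation. HUVEC had 259, 281 and 329 CPM in control and 347, 351 and 358 CPM after. Irradiated HAEC thus reached only the range of the lowest control HUVEC library, and the irradiated groups lay above their own controls without overlap. VWF rose by 1.53 ± 0.03 in HAEC (q = 3.97e-18) and 0.26 ± 0.05 in HUVEC (q = 2.63e-04), and the responses differed by -1.27 ± 0.08 (q = 1.08e-12). VWF shares 12.2% of its 31-base stretches with other loci, its pseudogene VWFP1 among them. MMRN1 rose by 0.52 ± 0.03 in HAEC and 0.52 ± 0.04 in HUVEC, with no difference between the responses past the threshold (0.00 ± 0.04, q = 0.994).
THBD, thrombomodulin, which turns thrombin towards activating protein C, fell in both, by 0.78 ± 0.05 and 0.59 ± 0.08, from 23.9 and 24.8 CPM to 14.1, 14.3 and 14.5 CPM in HAEC. PROCR fell by 0.28 ± 0.04 in HAEC and was at -0.02 ± 0.04 in HUVEC (q = 0.735), a difference of 0.26 ± 0.06 (q = 9.36e-04) that was lost without HAEC control replicate 1 (0.14, q = 0.120). TFPI, the inhibitor of the tissue factor pathway, was at 0.06 ± 0.03 in HAEC (q = 0.0999) and rose by 0.64 ± 0.04 in HUVEC, from 244 to between 380 and 397 CPM, a difference of 0.57 ± 0.04 (q = 9.00e-11). TFPI2 (ENSG00000105825), a matrix-bound relative that inhibits proteases, had 24.0 and 25.2 CPM in control and 8.52, 8.90 and 9.93 CPM in irradiated HAEC, and 40.9, 41.7 and 42.8 CPM in control and 12.3, 13.1 and 13.1 CPM in irradiated HUVEC. It fell without overlap in both, by 1.43 ± 0.06 (q = 1.01e-13) and 1.73 ± 0.04 (q = 4.29e-19). ADTRP (ENSG00000111863), named for androgen-dependent control of TFPI, had 18.7 and 19.1 CPM in control HAEC and 2.05, 2.09 and 2.23 CPM after radiation. In HUVEC it had 18.9, 20.4 and 21 CPM in control and 10.9, 11.9 and 12.3 CPM after. The endothelia started level and ended apart: ADTRP fell by 3.16 ± 0.07 (q = 4.63e-18) in HAEC and 0.81 ± 0.06 (q = 2.58e-11) in HUVEC, a difference of 2.35 ± 0.09 (q = 1.44e-16).

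Among the 6 secreted and vascular-tone genes, 4 were called higher and 2 lower in HAEC, and 3 higher and 1 lower in HUVEC. NOS3 (ENSG00000164867), the endothelial nitric oxide synthase, had 55.8 and 56.0 CPM in control and 43.5, 45.9 and 50.5 CPM in irradiated HAEC, and 24.7, 24.9 and 28.7 CPM in control and 27.7, 27.9 and 28.2 CPM in irradiated HUVEC. It fell in HAEC without overlap (-0.27 ± 0.05, q = 1.47e-04), while the HUVEC groups overlapped (0.08 ± 0.05, q = 0.233), though without HUVEC control replicate 1 it was called higher (0.14, q = 0.0125), and the responses differed by 0.34 ± 0.08 (q = 0.00149). EDN1 (ENSG00000078401), the precursor of the vasoconstrictor endothelin-1, had 126 and 144 CPM in control HAEC and 298, 301 and 304 CPM after radiation. HUVEC had 215, 220 and 234 CPM in control and 265, 270 and 272 CPM after. No groups overlapped, and EDN1 rose by 1.15 ± 0.04 (q = 1.09e-14) in HAEC and 0.25 ± 0.04 (q = 1.08e-05) in HUVEC, a difference of -0.90 ± 0.06 (q = 3.60e-12). The 2 genes of opposing tone therefore moved apart in HAEC, and in HUVEC, with all libraries in the fit, EDN1 was called and NOS3 was not.
ESM1 (endocan), a proteoglycan secreted by sprouting tip cells, rose by 0.38 ± 0.03 in HAEC and fell by 0.54 ± 0.04 in HUVEC, from between 249 and 273 to between 179 and 184 CPM, a difference of -0.92 ± 0.05 (q = 1.27e-13). MMRN2, a matrix protein that binds CD93 and CLEC14A, rose by 0.43 ± 0.03 and 0.34 ± 0.04. EGFL7, a secreted matrix factor of endothelium, fell by 0.21 ± 0.03 in HAEC and was at 0.07 ± 0.04 in HUVEC (q = 0.144), a difference of 0.28 ± 0.05 (q = 7.13e-05). GALNT15 (ENSG00000131386), a Golgi enzyme of the family that starts mucin-type O-glycans, had 1.31 and 1.44 CPM in control HAEC and 25.6, 25.9 and 26.3 CPM after radiation. HUVEC had 0.920, 1.5 and 1.60 CPM in control and 15.2, 15.4 and 15.9 CPM after. These were the largest rises of the 43 in both, 4.25 ± 0.07 (q = 7.36e-20) and 3.51 ± 0.11 (q = 2.28e-17), with a smaller one in HUVEC (difference -0.73 ± 0.17, q = 0.00211). Fibroblasts also hold this RNA, at 0.890 to 86.2 CPM.

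The 2 responses were compared gene by gene in 1 fit of the 11 endothelial libraries. The response was more positive in HUVEC for 12 of 42 genes, more negative for 14 and not called different for 16 (61.9%, against a background of 18% of 30317 genes, and 62.2% against 35.7% among genes of log2 CPM of at least 3). At 2-fold or more, it was more positive for PKHD1L1, ADTRP and LYVE1 and more negative for VWF, FLT4, RAMP2 and EMCN, where 3.56% of all genes differed as much. Over all genes, the shares were 8.85% and 9.11%. Of the 10 receptors, 6 were more negative in HUVEC (KDR, FLT1, FLT4, ROBO4, RAMP2 and ENG) and 1 more positive (S1PR1). With the replicate number as a block the difference was not called for SOX18 (-0.42, q = 0.104), FLT1 (-0.18, q = 0.0528), TFPI2 (-0.23, q = 0.0524) or ERG (0.16, q = 0.153). SOX18 was also lost without HAEC control replicate 1 (-0.29, q = 0.236), HAEC irradiated 1 (-0.41, q = 0.0509), HUVEC control 1 (-0.42, q = 0.0502) or HUVEC irradiated 3 (-0.44, q = 0.0560), and FLT1 without HAEC control 2 (-0.17, q = 0.0510) or HUVEC irradiated 3 (-0.14, q = 0.0690).
The endothelia also differed before radiation, with 18 of 42 genes higher and 13 lower in control HUVEC than in control HAEC (73.8%, against a background of 36.7%, and 73% against 60.6% among genes of log2 CPM of at least 3). Over all genes, 18.7% were higher and 18% lower, and 9.66% differed by 2-fold or more. At or above 2-fold, PKHD1L1 (2.32 ± 0.13), FLT4 (2.08 ± 0.09), VWF (1.73 ± 0.06), LYVE1 (1.39 ± 0.09), RAMP2 (1.18 ± 0.17) and FLT1 (1.00 ± 0.04) were higher in HUVEC on the log2 scale. KLF2 (-1.15 ± 0.08), THBD (-1.15 ± 0.08), NOS3 (-1.10 ± 0.06) and EMCN (-1.02 ± 0.04) were lower. KLF2, NOS3 and THBD were thus all higher in control HAEC than in control HUVEC. After radiation KLF2, NOS3 and THBD were all called lower in HAEC. In irradiated HUVEC, KLF2 was called higher and THBD lower, and NOS3 was not called. A link among these genes was not tested. The comparison of the control groups and that of the responses use the same control libraries, so their values for a gene are not independent. VWF and RAMP2, for example, started higher in HUVEC and had a smaller rise there, which was not called for RAMP2. FLT4 also started higher in HUVEC, but fell there and rose in HAEC. PKHD1L1 started higher in HUVEC and rose more.

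Other endothelial genes were described from lists that do not include the 43. The shares called in them are to be read against the same background, 39.7% of all genes in HAEC and 38.7% in HUVEC, and 66.1% and 66.4% among genes of log2 CPM of at least 3. Where a gene is named with a value for HAEC or HUVEC alone, its value in the other is not given here. Such naming does not show that the endothelia differ. Of 22 endothelial transcription factors, 12 were higher and 4 lower in HAEC (median 0.23), and of 21 tested in HUVEC 10 were higher and 2 lower (median 0.09), so that 72.7% and 57.1% were called. EPAS1 (HIF-2 alpha) rose in both, by 1.58 ± 0.04 and 1.04 ± 0.04, and ETS1 fell in both, by 0.34 ± 0.04 and 0.49 ± 0.04, while FLI1 of the same ETS family rose. LMO2, a bridging partner of TAL1, rose by 1.11 ± 0.07 in HAEC. Of 17 VEGF and angiopoietin ligands, co-receptors and signalling partners, 12 were higher and 4 lower in HAEC (median 0.39), with ANGPT2, the TEK antagonist, at -0.67 ± 0.05, and 9 were higher and 2 lower in HUVEC (median 0.17), with SPHK1, which makes the ligand of S1PR1, at -1.05 ± 0.04. The shares called were 94.1% and 64.7%. ITGB3, an integrin chain, was 0.84 ± 0.04 in HAEC and -0.24 ± 0.04 in HUVEC.
Of 19 further junction genes, 10 were higher in each endothelium, with 5 lower in HAEC and 2 in HUVEC (78.9% and 63.2% called). The gap junction gene GJA4 was 5.65 ± 0.17 in HAEC and -1.17 ± 0.12 in HUVEC, and CLDN5, the tight junction claudin of endothelium, rose by 0.71 ± 0.04 in HUVEC. Of 18 genes of Weibel-Palade bodies, the granules that store VWF, 5 were higher and 4 lower in HAEC and 8 higher and 1 lower in HUVEC, with medians of 0.01 and 0.08. That was 50% in both, between the share of all genes and that of the better-measured ones. SELP, P-selectin, which is stored there with VWF, rose by 5.11 ± 0.12 in HAEC, and RAB3B rose in both (0.32 ± 0.03 and 0.47 ± 0.04). Of 17 clotting and fibrinolysis genes, 5 were higher and 10 lower in HAEC (median -0.21) and 5 higher and 6 lower in HUVEC (median -0.08), or 88.2% and 64.7% called. The plasminogen activator PLAT fell by 2.25 ± 0.04 and 0.62 ± 0.04 and the urokinase receptor PLAUR by 1.33 ± 0.04 and 0.71 ± 0.04, while the thrombin receptor F2R rose by 1.05 ± 0.03 and 0.40 ± 0.04. Of 17 flow-response genes, 9 were higher and 4 lower in HAEC and 7 higher and 4 lower in HUVEC (76.5% and 64.7% called). BMP4 rose by 2.36 ± 0.04 and 0.80 ± 0.04, and DDAH2, which breaks down an inhibitor of nitric oxide synthase, by 0.79 ± 0.04 and 0.63 ± 0.05.

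In fibroblasts the same genes give a background for the response to radiation. IMR-90 given 10 Gy were compared with proliferating IMR-90, with all 6 IMR-90 libraries in the fit. Of 41 genes tested, 12 were higher and 8 lower (48.8%, against a background of 49.1%, with 26.6% of all genes higher and 22.5% lower). Among those of log2 CPM of at least 3 it was 9 of 10, against 76.2%. In these libraries 21 of 22 cell division genes were higher in the group labelled irradiated than in the group labelled proliferating, the reverse of the endothelia, so directions hold only for the libraries as labelled. EDN1 had 1.55 and 1.71 CPM in the libraries labelled proliferating and 17.6 and 18.1 CPM in those labelled irradiated, with no overlap (3.46 ± 0.11, q = 1.34e-11). FLT1 (3.04 ± 0.13) and KLF2 (2.90 ± 0.13) were higher too, and S1PR1 (-2.14 ± 0.08), PROCR (-1.90 ± 0.07), KDR (-1.56 ± 0.20) and TEK (-1.54 ± 0.13) lower. The lower group of EDN1, FLT1 and KDR stood at 0.868%, 0.895% and 0.920% of their mean in endothelial controls. Strictly endothelial RNAs were found near that level in IMR-90, as described below, and the source of those reads was not tested.
WI-38 given 10 Gy were compared with their own controls in a fit of the 12 libraries of the second set. Of 38 genes tested, 7 were higher and 3 lower (26.3%, against a background of 15%, with 8.89% of all genes higher and 6.09% lower). Among those of log2 CPM of at least 3 it was 6 of 10, against 23.2%. In this comparison 20 of 22 cell division genes were lower. TFPI2 had 9.45 and 9.98 CPM in control and 66.6 and 84.6 CPM in irradiated WI-38, a rise of 3.01 ± 0.19 (q = 2.18e-07), in contrast to its fall in both endothelia. GALNT15 rose from 11.3 and 12.1 to 65.2 and 72.8 CPM (2.62 ± 0.24, q = 4.27e-06), the same direction as in both endothelia and as in IMR-90, where it was 0.53 ± 0.06. THBD (3.37 ± 0.66), ADTRP (1.35 ± 0.31), S1PR1 (1.23 ± 0.29), TEK (1.14 ± 0.21) and TFPI (0.74 ± 0.23) were also higher and ROBO4 (-2.40 ± 0.33), STAB1 (-1.36 ± 0.27) and FLT1 (-0.72 ± 0.20) lower. Some of these calls were lost under other settings: ADTRP without control replicate 1 (1.43, q = 0.0604) or 2 (1.27, q = 0.0935), S1PR1 without control replicate 1 (1.17, q = 0.0747), FLT1 in 5 of 17 alternatives, each without 1 library (-0.64 to -0.79, q up to 0.198), and TFPI in 8 of 17 (0.52 to 0.80, q up to 0.211). The libraries were either control, either irradiated or proliferating replicate 1 for FLT1, and for TFPI either control, irradiated replicate 1 or either proliferating one. The spread between replicates was wider here, with a coefficient of variation of 38.1% against 5.69% in HAEC and 6.94% in HUVEC. No test compared fibroblasts with endothelium.
TEK was not restricted to endothelium, with 10.5 to 314 CPM in fibroblast libraries against 144 to 167 CPM in endothelial ones. The lowest were the 2 WI-38 libraries with HRAS (10.5 and 10.6 CPM) and the highest the repeat doxorubicin libraries (312 and 314 CPM). Among the 11 genes that did not separate endothelium from fibroblasts were also KLF2, KLF4, ENG, LYVE1, THBD, TFPI, TFPI2, ADTRP, GALNT15 and APLNR.

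Strictly endothelial RNAs were found at a low level, nearly even among genes, in the IMR-90 groups and untreated WI-38 of the first set. The second WI-38 set was used to pick 6 genes below 0.1% of their mean in endothelial controls in all 6 of its groups: TAL1, TIE1, CDH5, EMCN, CD93 and MMRN1. In the IMR-90 groups and the first WI-38 set, which share their sequencing description with the endothelial libraries, these 6 stood at 0.594% to 0.865% of the endothelial level in proliferating IMR-90, 0.563% to 0.812% in irradiated and 0.324% to 0.503% in late-passage IMR-90. They stood at 0.451% to 0.593% in untreated WI-38 of the first set, and lower with doxorubicin (median 0.0444%) and the empty vector (median 0.0313%). In the HRAS group the median was 0.228%, but its libraries differed: CDH5 had 0.0803 and 1.34 CPM in replicates 1 and 2, and MMRN1 0.452 and 7.24 CPM. The endothelial levels of these genes differ widely, from 42.7 CPM for TAL1 to 1686 CPM for MMRN1, while their percentages within an IMR-90 group stayed in the narrow ranges given. The source of these reads was not tested. They bear on fibroblast values near 1% of the endothelial level or below. In proliferating IMR-90 these include ERG (0.621%), NOS3 (1.37%), VWF (1.07%), EDN1 (0.868%) and FLT1 (0.895%), and in irradiated IMR-90 KDR (0.920%). TEK, TFPI2 and GALNT15 were far above that range in IMR-90.

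**Figure D4:**
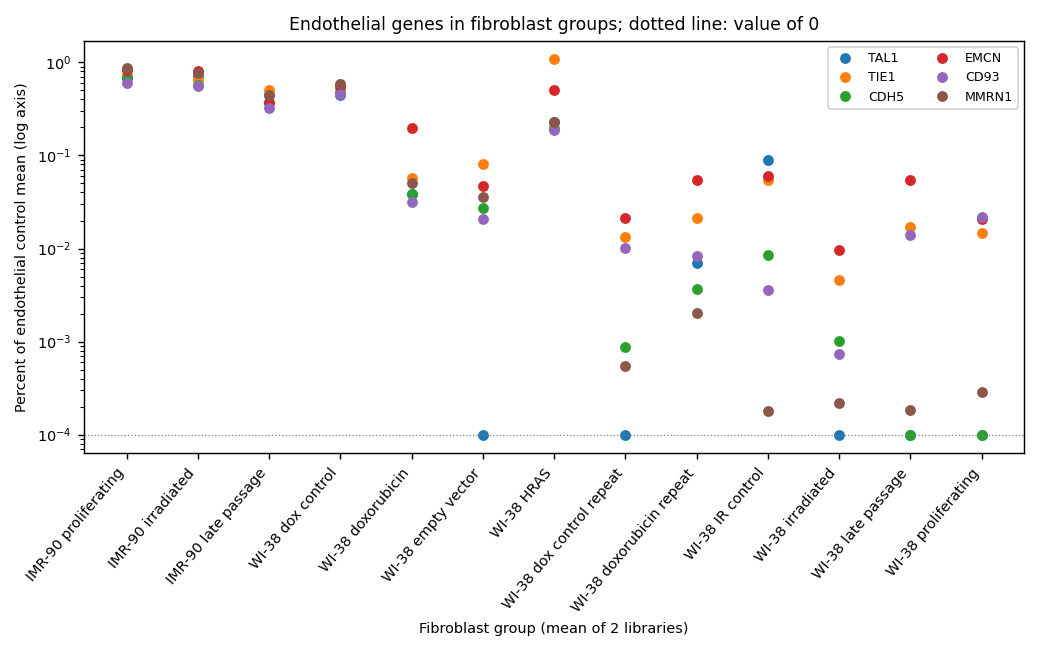
Points are mean levels of 6 endothelial genes in each fibroblast group (2 libraries each) as a percentage of their mean over the 5 endothelial control libraries, on a log axis; values of 0 are drawn on the dotted line. The 6 genes lie close together between 0.324% and 0.865% in the 3 IMR-90 groups and untreated WI-38 of the first set. They were picked for lying below 0.1% in the second WI-38 set, so their low place there was fixed by that choice.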

How the data were processed

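Raw read counts per Ensembl gene were deposited by the authors, 1 file per library, with no normalization. Per the submitters' processing notes, bcl2fastq, cutadapt, STAR 2.4 (hg19) and featureCounts were used. The annotation release, strand setting and filters were not given in the sources used here. Per the labels' protocols, ribosomal RNA was depleted and cDNA made with the Ovation V2 system. Groups came from the labels. Each comparison used edgeR 4.0.16 (R 4.3.3): filterByExpr, TMM scaling, glmQLFit and glmQLFTest, Benjamini-Hochberg adjustment over all genes tested and a threshold of 0.05; standard errors are |log2 fold change| divided by the root of F. The scripts were tested on simulated data. The 43 genes and the lists were chosen with earlier results of these data known. Values in every library were given for VWF, CDH5, KDR, TEK, ERG, FLI1, KLF2, KLF4 and NOS3 and for genes called with a log2 change or difference of at least 1 in HAEC, HUVEC or between them; other genes were added for their role after their values were seen, and from each other list the genes named are among the 2 with the smallest adjusted p per direction. Exon lengths and overlaps came from a GENCODE annotation of GRCh38, not the build of the files. Alternatives were DESeq2 1.42.0, its size factors, no scaling, no filter, the replicate number as a block, a joint fit, and leaving out each library. Intervals on ratios of counts are exact, at 95%, and cover counting error only. Same-numbered HUVEC libraries deviated apart (r of -0.118, -0.385 and -0.368), and in HAEC r was 0.018 and 0.051. In contrast, same-numbered irradiated and control WI-38 libraries deviated together (r of 0.61), and IMR-90 ones weakly so (0.17). Numbers were not taken as pairs in any main comparison, and the block is given as an alternative.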

Additional observations from a re-analysis of the deposited data

Results flagged for a closer look

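The radiation response differed between HUVEC and HAEC, by the interaction test in edgeR, for 26 of 42 genes (61.9%). Of all 30317 genes tested, 18% were called different. Among genes of log2 CPM of at least 3, the shares were 62.2% of the listed genes and 35.7% of all. On the log2 scale, HUVEC minus HAEC, the response was more positive for PKHD1L1 (2.87), ADTRP (2.35), LYVE1 (1.30), KLF2 (0.82), TFPI (0.57), S1PR1 (0.51), ESAM (0.35), NOS3 (0.34), CD93 (0.33), EGFL7 (0.28), PROCR (0.26) and ERG (0.17). It was more negative for VWF (-1.27), FLT4 (-1.20), RAMP2 (-1.20), EMCN (-1.01), ESM1 (-0.92), EDN1 (-0.90), CD34 (-0.79), GALNT15 (-0.73), ENG (-0.61), ROBO4 (-0.51), SOX18 (-0.44), TFPI2 (-0.29), KDR (-0.22) and FLT1 (-0.15). For ADTRP, ESAM, CD93, VWF, EDN1, CD34, GALNT15, SOX18, TFPI2 and FLT1 both endothelia moved the same way and the sizes differed. The difference for ERG was not called under most other settings. Those for SOX18, FLT1, TFPI2 and PROCR were lost under some.

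Fibroblast groups outside the tests also held signals, picked as ratios of mean CPM of at least 8 with a treated mean of at least 5 CPM and both treated libraries above both controls. They have no test. In WI-38 with HRAS over the empty vector, THBD had a ratio of 450 (3697 against 9 counts, exact 95% interval 246 to 1030 for counting error only). Its libraries had 14 and 15.7 CPM against 0.0190 and 0.0470 CPM. ESM1 had a ratio of 97.4 there (28.4 and 24.7 against 0.311 and 0.235 CPM), TFPI2 16.6, ROBO4 13.1 and ADTRP 13. TFPI2 also had a ratio of 9.92 with doxorubicin in the earlier WI-38 experiment and 11.4 in the repeat. In late-passage over proliferating IMR-90, FLT1 had a ratio of 16.4 and EDN1 12. Those proliferating libraries had less RNA of cell division genes than irradiated IMR-90. FLT1 and EDN1 stood there at 0.895% and 0.868% of their mean in endothelial controls. Strictly endothelial RNAs stood near that level in the same libraries, and the source of those reads was not tested.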

How the results depend on the processing

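Counts of called genes stayed within 1.5 times of the reported ones under every alternative but 1: with DESeq2, 6 genes rather than 3 were lower in irradiated WI-38. With 1 library left out, HAEC had 19 to 20 higher and 12 to 14 lower, HUVEC 17 to 20 and 12 to 13, the difference of responses 10 to 13 and 12 to 17, control HUVEC against HAEC 17 to 18 and 11 to 14, IMR-90 10 to 12 and 7 to 9, WI-38 5 to 7 and 2 to 4, and 32 to 33 genes separated endothelium from fibroblasts. With the replicate block, which the labels do not tie to shared cultures and under which no HUVEC library correlated best with its own number, the counts were 19 and 13 in HAEC, 17 and 12 in HUVEC, 11 and 11 for the difference, 17 and 13 between controls, 12 and 9 in IMR-90 and 6 and 3 in WI-38. Signs turned only for log2 changes near 0 that were not called: with no scaling, KDR (0.012), PKHD1L1 (0.025) and TEK (0.030) in HAEC and S1PR1 (0.00096) in HUVEC. With 1 library left out, PKHD1L1 ranged from -0.17 to 0.14 in HAEC, and in HUVEC ENG from -0.080 to 0.11, KLF4 from -0.042 to 0.14, PROCR from -0.044 to 0.0072 and S1PR1 from -0.055 to 0.0081. Among the differences of response, that for ERG was not called in 12 of 16 alternatives (0.10 to 0.16, q 0.0715 to 0.315), SOX18 in 5, FLT1 in 3, and TFPI2 and PROCR in 1 each. Calls were also lost for PLVAP (9 of 11) and MCAM (2 of 11) in HAEC, ESAM in HUVEC (5 of 12), and in WI-38 TFPI (8 of 17), FLT1 (5), ADTRP (2) and S1PR1 (1). The block was among the settings that ended the calls for the differences of ERG, SOX18, FLT1 and TFPI2, PLVAP in HAEC, ESAM in HUVEC and TFPI in WI-38. Calls were gained with no scaling in HAEC for ERG (0.14, q = 0.00457), TFPI (0.12, q = 0.00458) and STAB1, for ECSCR in HAEC and TEK in HUVEC with DESeq2, for STAB1 in HAEC without irradiated replicate 2, and without HUVEC control replicate 1 for NOS3, ROBO4, STAB1 and TEK in HUVEC. For genes near or under 1 CPM, such as KLF4, RAMP2 and PKHD1L1 in HAEC, the spread between libraries limits what could be seen.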
